A study of Mus musculus with 5 samples.

Results

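The genes described here are the core markers of Purkinje cells, the large inhibitory output neurons of the cerebellar cortex. The 10 members are Pcp2, Rgs8, Gng13, Calb1, Pvalb, Pcp4, Car8, Ppp1r17, Dner and Arhgef33. They were given as a list of Purkinje-enriched genes and found by symbol among the 55421 genes of the deposited count table. The rule itself uses no measured value, but the list was drawn up with earlier results of these data known. All 10 were detected in every library, at 261 counts or more, and all 10 were among the 20388 genes with enough counts for testing.

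Bulk RNA-seq was done on the whole cerebellum of mice aged P14 (postnatal day 14). The 3 Yy1 cKO libraries carried Pcp2 Cre/+ and Yy1 fx/fx, so that both copies of Yy1, a zinc finger transcription factor of most cell types, were floxed. The 2 control libraries were Pcp2 Cre/+ and Yy1 fx/+ littermates, so the controls also carried Cre and 1 floxed copy. Pcp2 drives Cre in Purkinje cells, which are a small share of the cells of this tissue, and any change confined to them is diluted in such libraries. The labels do not say that the libraries are separate animals, so p-values measure the spread between these samples, part of which may be technical.

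Total counts were 18872728 to 20305705 in the Yy1 cKO libraries and 17424860 to 18007663 in the control libraries. Levels are given as CPM, counts scaled to a common library size, after TMM, a method that sets the libraries to a common level for most genes. Yy1 itself averaged 77.0 ± 4.25 CPM in Yy1 cKO and 74.2 ± 0.60 CPM in control (SD, n = 3 and 2; edgeR adjusted p = 0.61), in tissue where most cells are not targeted. The samples are of mixed sex: the Y-linked gene Ddx3y had 1471 counts in Yy1 cKO 3 and 1175 in control 1, and 0 in the other libraries. Libraries with Ddx3y thus did not come from the same animals as those without it. Yy1 cKO 3 stood apart from its group. The chi-square per gene, a measure of how far 2 libraries differ beyond read sampling, was 3.51 between Yy1 cKO 1 and 2, and 16.6 and 16.7 between Yy1 cKO 3 and these. It was 7.72 between the 2 controls, and 34.1 to 41.5 between libraries of different groups.

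Purkinje cells receive strong excitation from climbing and parallel fibres and turn it into calcium signals in their dendrites. Calcium enters through voltage-gated channels or is released from stores by the IP3 receptor, downstream of the metabotropic glutamate receptor mGluR1, and is held by large amounts of calcium-binding protein. The members sit in this machinery. Pcp2, Rgs8 and Gng13 act on heterotrimeric G proteins, Calb1 and Pvalb buffer calcium, Pcp4 tunes calmodulin, Car8 binds the IP3 receptor and Ppp1r17 inhibits protein phosphatases.

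Sequences before the gene starts were searched for short motifs, because Yy1 is the deleted factor and because Purkinje genes are known targets of the nuclear receptor RORA. RefSeq starts on GRCm38.p6 were given for 7 of the 10 members, namely Pcp2, Rgs8, Gng13, Pvalb, Pcp4, Dner and Arhgef33. The windows are the 250 bases before each start, and both strands were read. The YY1 core motif CCATNTT was in 0 of the 7 members, and in 14.1% of the 27025 genes that have a window. The RORA core motif AGGTCA was in 5 of the 7 members, and in 15.8% of all genes. By window it was in 7 of 14 windows of the members and 14.0% of all windows, although members with several starts share some of the sequence. The 7 members had 14 windows and the 27025 genes had 32851, so a member had more windows in which to match. Of the 8 motifs searched, GCCATNTT and CCATCTT are forms of the YY1 motif and GATAAG was in 0 members. ATAAAT was in 3 of the 7 members and 14.3% of genes, TATAAA in 1 and 14.3%, and CAGCTG in 1 and 14.7%.

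For each of the 5 members with AGGTCA, a window that holds it is shown 5′ to 3′ on the strand of the gene. The motif is shown since it is the sequence feature that most members with a window had in common. AGGTCA, or TGACCT where it lies on the other strand, is in capitals. A match of letters is not evidence of binding. Pcp2 is at chr8:3625548-3625797 on the minus strand, Pcp4 at chr16:96467356-96467605 on the plus strand, Rgs8 at chr1:153665423-153665672 on the plus strand, Dner at chr1:84696222-84696471 on the minus strand and Arhgef33 at chr17:80307157-80307406 on the plus strand.
Pcp2: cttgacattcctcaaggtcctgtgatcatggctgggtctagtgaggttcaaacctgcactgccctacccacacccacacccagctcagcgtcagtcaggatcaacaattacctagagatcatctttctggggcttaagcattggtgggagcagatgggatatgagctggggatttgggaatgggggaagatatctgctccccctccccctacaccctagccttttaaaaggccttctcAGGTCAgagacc
Pcp4: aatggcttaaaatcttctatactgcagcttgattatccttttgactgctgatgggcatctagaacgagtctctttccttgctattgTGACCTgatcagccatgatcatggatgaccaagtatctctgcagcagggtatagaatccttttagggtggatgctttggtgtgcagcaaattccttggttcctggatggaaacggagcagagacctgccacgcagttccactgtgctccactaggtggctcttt
Rgs8: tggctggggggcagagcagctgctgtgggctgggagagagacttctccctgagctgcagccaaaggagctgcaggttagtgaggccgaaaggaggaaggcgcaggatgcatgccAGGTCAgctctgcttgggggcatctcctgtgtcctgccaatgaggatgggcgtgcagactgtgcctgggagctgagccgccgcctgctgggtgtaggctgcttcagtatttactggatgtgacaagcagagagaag
Dner: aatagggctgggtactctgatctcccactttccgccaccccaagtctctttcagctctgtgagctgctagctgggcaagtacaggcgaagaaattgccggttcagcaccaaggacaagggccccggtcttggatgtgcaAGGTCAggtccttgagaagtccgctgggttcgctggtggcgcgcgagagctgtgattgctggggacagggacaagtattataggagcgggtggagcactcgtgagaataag
Arhgef33: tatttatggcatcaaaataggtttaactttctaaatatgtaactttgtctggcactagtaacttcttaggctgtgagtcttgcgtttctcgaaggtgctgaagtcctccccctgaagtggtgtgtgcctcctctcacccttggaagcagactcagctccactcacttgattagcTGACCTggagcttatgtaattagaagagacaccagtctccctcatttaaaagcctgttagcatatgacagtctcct
In the windows shown, the motif began 12 bases before the start in Pcp2, 76 in Arhgef33, 111 in Dner, 136 in Rgs8 and 164 in Pcp4. In windows of other Pcp2 starts it began 87 or 26 bases before the start. Rora itself averaged 592 ± 44.1 CPM in Yy1 cKO and 560 ± 90.4 CPM in control (log2 fold change 0.08 ± 0.10, SE, edgeR adjusted p = 0.64).

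The comparison of Yy1 cKO with control asks whether the Purkinje marker set changes when Purkinje cells lose Yy1. Pvalb and Dner rose, by 1.27-fold and 1.18-fold. The other 8 members, among them Calb1 and Pcp2, did not pass the threshold, and none fell. The 2 called members are 20% of the list, against 23.4% of all 20388 genes tested that were called in either direction and 10.7% that were called higher (adjusted p under 0.05 in the quasi-likelihood test of edgeR). The share of members called was thus near the background. The median log2 fold change of the members was 0.22, against -0.00086 over all tested genes, with 7 members above 0 and 3 below. In 3 members (Gng13, Pvalb and Dner) the groups did not overlap, and in the other 7 they did. The share of all tested genes without overlap is not given here, so this count is not read as a trait of the members. In bulk tissue, fewer Purkinje cells and less RNA per cell cannot be told apart.

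**Figure D1:**
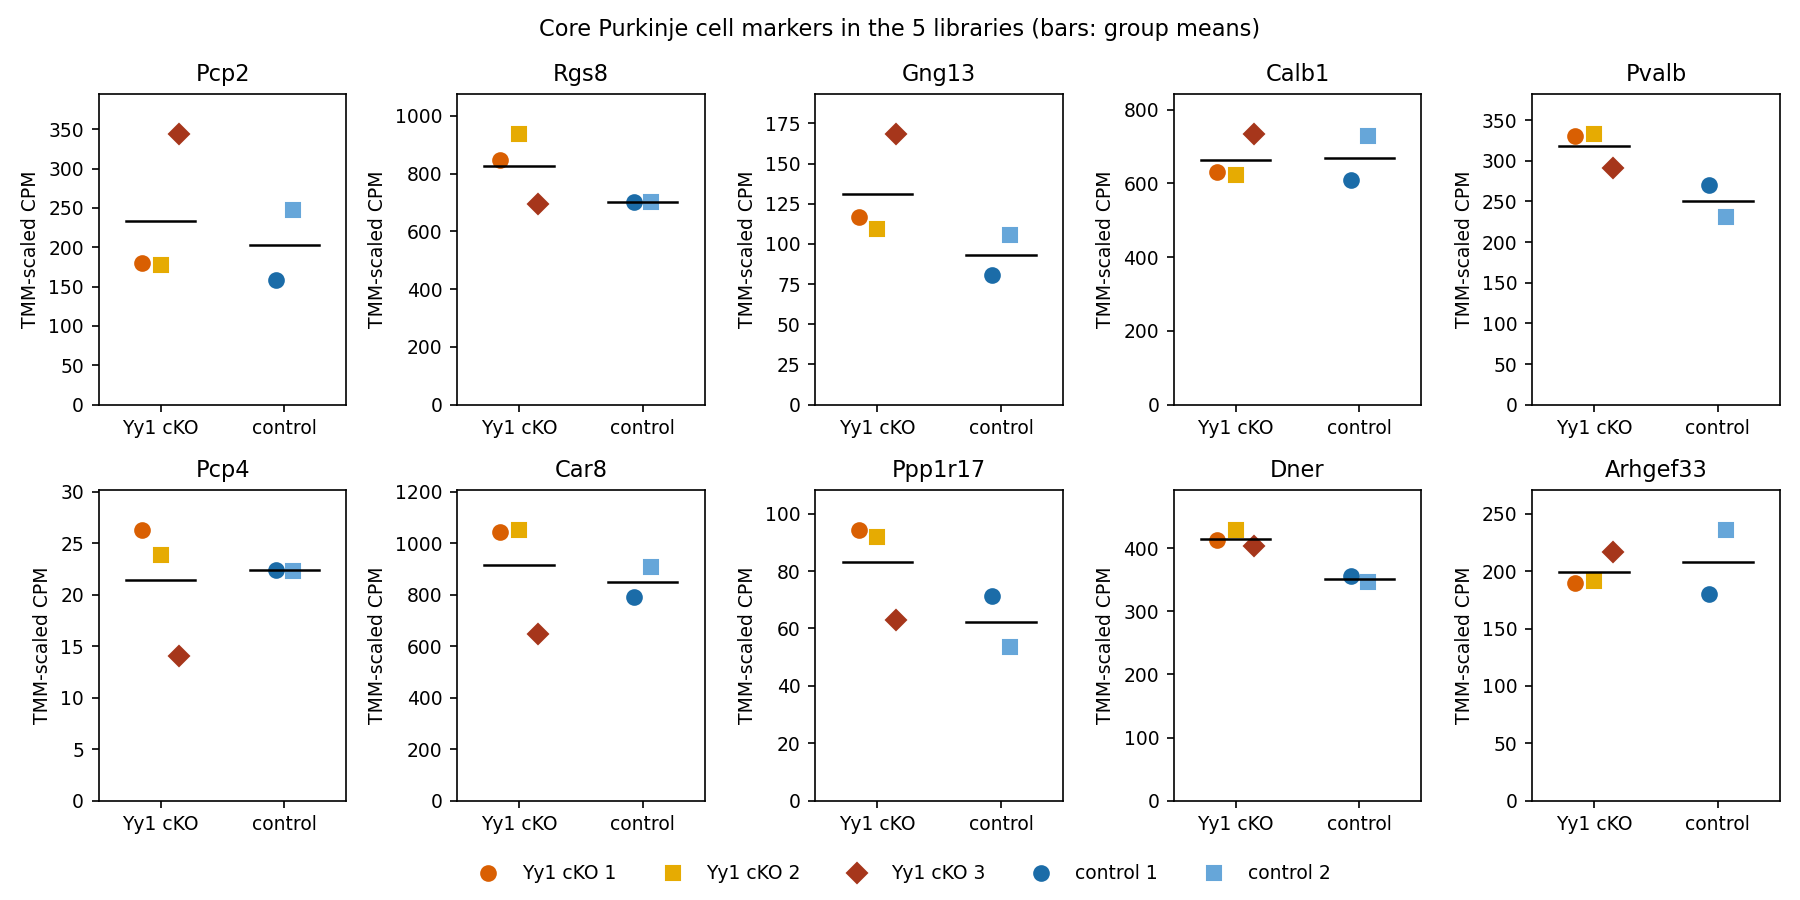
TMM-scaled CPM (y axis, from 0) of each of the 10 genes in the 3 Yy1 cKO libraries and the 2 control libraries, 1 point per library, with bars at the group means. The groups are separate for Gng13, Pvalb and Dner, and Yy1 cKO 3 lies at the top or the bottom of its group in all 10 panels.

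Pcp2 (ENSMUSG00000004630.18, chromosome 8, 3623371 to 3625545, minus strand) encodes a small protein whose GoLoco motif binds Gi and Go alpha subunits, and its promoter is the one used for Cre. It stood at 180, 178 and 344 CPM in Yy1 cKO 1, 2 and 3 and at 158 and 247 CPM in control 1 and 2. Yy1 cKO 3 was the highest of all libraries and control 1 the lowest, and the groups overlapped. The log2 fold change was 0.21 ± 0.46 (SE, edgeR adjusted p = 0.81), with a 95% interval of -1.20 to 1.61, so a change of 2-fold in either direction lies within the interval. Pcp2 shares 941 of its 1828 exonic bases with Pet100, a mitochondrial assembly gene on the opposite strand. Pet100 stood at 18.37, 18.01 and 28.3 CPM in Yy1 cKO and 17.2 and 21.7 CPM in control, the same order of the 5 libraries as for Pcp2. The strand setting of the counting is not given in the sources used here, so the share of Pcp2 reads in Pet100 was not tested.

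Rgs8 (ENSMUSG00000042671.12, chromosome 1, 153653025 to 153700323), which speeds the switching off of Gi and Go alpha subunits, stood at 848, 937 and 694 CPM in Yy1 cKO and at 701 and 702 CPM in control. The controls lay close together, Yy1 cKO 1 and 2 lay above them, and Yy1 cKO 3 lay just below. Its log2 fold change was 0.24 ± 0.12 (SE, edgeR adjusted p = 0.20). Without Yy1 cKO 3 it was 0.35 (edgeR adjusted p = 0.00021). With all 5 libraries and no filter beyond 1 count it was also called (0.24, edgeR adjusted p = 0.0039), so the call depended on that library and on the filter.

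Gng13 (ENSMUSG00000025739.13, chromosome 17, 25717171 to 25719406), a G protein gamma subunit, stood at 117, 109 and 168 CPM in Yy1 cKO and at 80.8 and 106 CPM in control. All Yy1 cKO libraries were above both controls, but Yy1 cKO 2 only by a little. The log2 fold change of 0.50 ± 0.26 (SE) was the highest of the members and did not pass (edgeR adjusted p = 0.28, 95% interval -0.24 to 1.23). Gng13 shares 399 of its 773 exonic bases with Chtf18 on the opposite strand, which stood at 9.06, 7.56 and 10.2 CPM in Yy1 cKO and 7.63 and 6.25 CPM in control.

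Calb1 (ENSMUSG00000028222.2, chromosome 4, 15881264 to 15908064) encodes calbindin, the calcium buffer by which Purkinje cells are commonly stained. It stood at 632, 623 and 734 CPM in Yy1 cKO and at 611 and 730 CPM in control. The highest library of each group was nearly level with that of the other, and the groups overlapped. The log2 fold change was -0.02 ± 0.10 (SE, edgeR adjusted p = 0.93), and its 95% interval of -0.24 to 0.21 corresponds to 0.847-fold to 1.16-fold. Of the 10 members Calb1 had the smallest absolute change.

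Pvalb (ENSMUSG00000005716.16, chromosome 15, 78191114 to 78206400) encodes parvalbumin, a calcium buffer that molecular layer interneurons also make. It stood at 331, 333 and 291 CPM in Yy1 cKO and at 270 and 231 CPM in control, with no overlap. It rose by 0.34 ± 0.086 on the log2 scale (SE, edgeR adjusted p = 0.019, 95% interval 0.15 to 0.54). The call was lost without control 2 (edgeR adjusted p = 0.20), without Yy1 cKO 1 (0.067) and without Yy1 cKO 2 (0.066). Of the 12 genes that mark Golgi cells and molecular layer interneurons, 6 rose and 0 fell (50% called, against 23.4% of all tested genes), with a median log2 fold change of 0.45. Their summed level was 1140 to 1293 CPM in Yy1 cKO and 795 to 797 CPM in control, and none of the 12 was at 0 in any library. Gad2 rose by 0.62, Prkcd by 0.79, Kit by 0.56 and Lypd6 by 0.90 on the log2 scale. The 6 that did not pass were Gjd2 (-0.25), Pax2 (-0.24), Slc6a5 (0.16), Tfap2b (0.22), Nxph1 (0.23) and Grm2 (0.34). The part of these cells in the Pvalb value was not tested.

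Pcp4 (ENSMUSG00000090223.2, chromosome 16, 96467606 to 96525793), a small protein whose IQ motif binds calmodulin, was the lowest member. It had 522, 436 and 261 counts in Yy1 cKO and 417 and 400 in control, or 26.3, 23.9 and 14.0 CPM and 22.4 and 22.3 CPM. Yy1 cKO 3 lay far below every other library, while Yy1 cKO 1 and 2 lay above both controls. In the fit over all libraries the log2 fold change was -0.06 ± 0.27 (SE, edgeR adjusted p = 0.90), and without Yy1 cKO 3 it was 0.17 (edgeR adjusted p = 0.20). Pcp4 shares 243 of its 1026 exonic bases with Igsf5 on the same strand, which had at most 8 counts.

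Car8 (ENSMUSG00000041261.9, chromosome 4, 8143362 to 8239041) is related to carbonic anhydrases but inactive as an enzyme, and lowers the affinity of the IP3 receptor for its ligand. It stood at 1043, 1051 and 648 CPM in Yy1 cKO and at 791 and 909 CPM in control. Yy1 cKO 1 and 2 lay above both controls and Yy1 cKO 3 below both. Over all libraries its log2 fold change was 0.10 ± 0.26 (SE, edgeR adjusted p = 0.82). Without Yy1 cKO 3 it was 0.30 (edgeR adjusted p = 0.0021). Its partner Itpr1, the IP3 receptor, rose by 0.75 ± 0.097 on the log2 scale (SE, edgeR adjusted p = 0.00052).

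Ppp1r17 (ENSMUSG00000002930.6, chromosome 6, 56017497 to 56032689), a phosphatase inhibitor that is switched on by cGMP-dependent kinase, stood at 94.3, 91.7 and 63.0 CPM in Yy1 cKO and at 71.2 and 53.5 CPM in control. Yy1 cKO 3 lay between the controls, and the groups overlapped. The log2 fold change was 0.41 ± 0.24 (SE, edgeR adjusted p = 0.32). Of the catalytic subunits it acts on, Ppp1ca fell by 0.37 and Ppp1cb by 0.18, Ppp1cc rose by 0.38, and Ppp2ca (log2 fold change -0.08) did not pass.

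Dner (ENSMUSG00000036766.12, chromosome 1, 84369839 to 84696221), a transmembrane protein of Purkinje dendrites with repeats like those of Notch ligands, stood at 413, 429 and 403 CPM in Yy1 cKO and at 355 and 346 CPM in control. The Yy1 cKO libraries lay closer together, relative to their mean, than for any other member, and the groups did not overlap. It rose by 0.24 ± 0.059 on the log2 scale (SE, edgeR adjusted p = 0.016, 95% interval 0.11 to 0.37). The call was lost without control 1 (edgeR adjusted p = 0.094), control 2 (0.15), Yy1 cKO 1 (0.064) or Yy1 cKO 2 (0.056), and with scaling by library totals alone (0.064), while the log2 fold change stayed between 0.16 and 0.28 under all alternatives tried.

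Arhgef33 (ENSMUSG00000054901.7, chromosome 17, 80307407 to 80400081) stood at 190, 192 and 217 CPM in Yy1 cKO and at 180 and 236 CPM in control. The controls enclosed all Yy1 cKO libraries. Arhgef33 had a log2 fold change of -0.06 ± 0.12 (SE, edgeR adjusted p = 0.77).

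**Figure D2:**
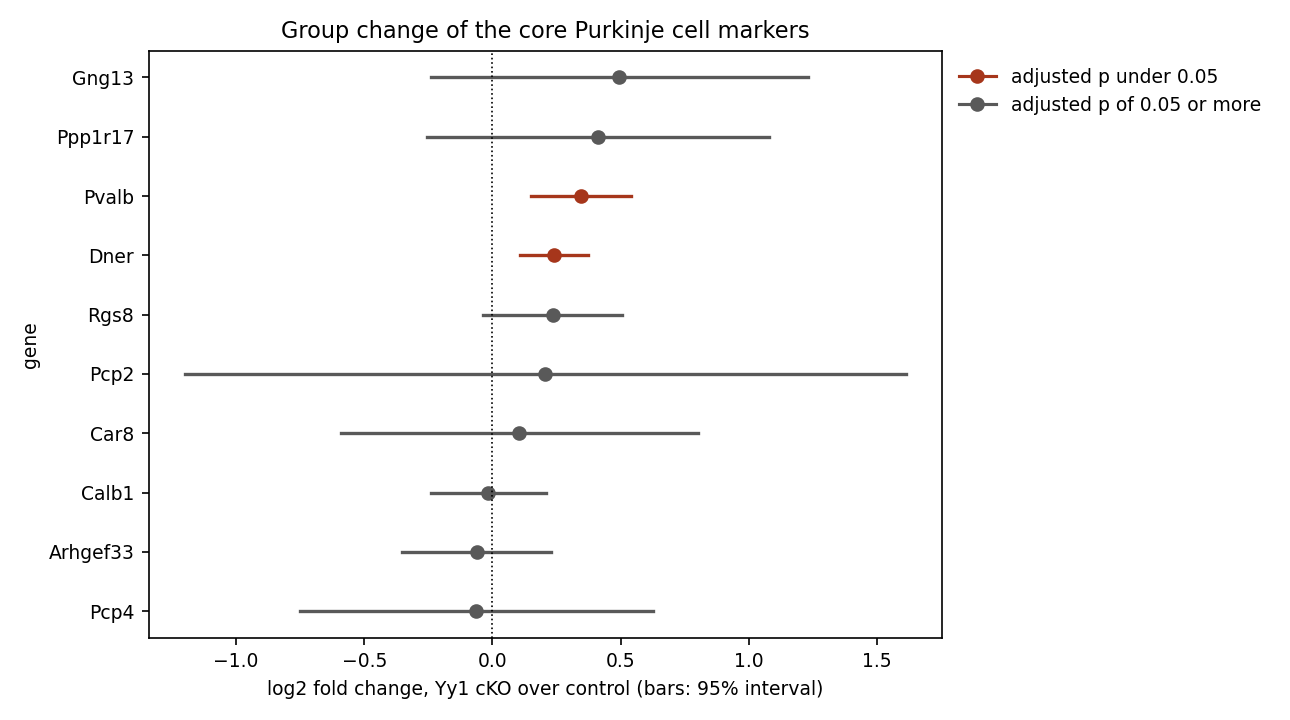
Log2 fold change of Yy1 cKO over control (x axis) for each of the 10 genes, with 95% intervals from the edgeR fit as bars and called genes in red. The intervals of Pvalb (0.15 to 0.54) and Dner (0.11 to 0.37) lie above 0, and that of Pcp2 is the widest (-1.20 to 1.61).

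Libraries of the same genotype differed widely for several members. Spread is given as the SD of log2 CPM around the group means, over 3 degrees of freedom. Its median over the members was 0.25, against 0.14 over all tested genes and 0.086 over the 10731 genes with a mean of at least 10 CPM. Of the 10 members, 5 lay above the 90th percentile of those genes, which was 0.20. Pcp2 (0.52) was at percentile 99.3, Pcp4 (0.40) at 98.6, Car8 (0.34) at 97.9, Gng13 (0.32) at 97.2 and Ppp1r17 (0.31) at 97.1. Arhgef33 and Rgs8 (0.18 each) were at 87.8, Calb1 (0.15) at 80.8 and Pvalb (0.13) at 73.8. Dner (0.039), at percentile 12, was the exception.

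Read sampling sets a floor to the spread. At the lowest count of each member the CV from counting alone was 0.891% to 6.19%, the highest being that of Pcp4. The biological coefficient of variation that edgeR estimated was 34.4% for Pcp2, against 7.57% for the trend of genes at its level. It was above that trend in 9 of the 10 members, and over 1.5 times the trend in the same 5 that exceeded the 90th percentile.

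**Figure D3:**
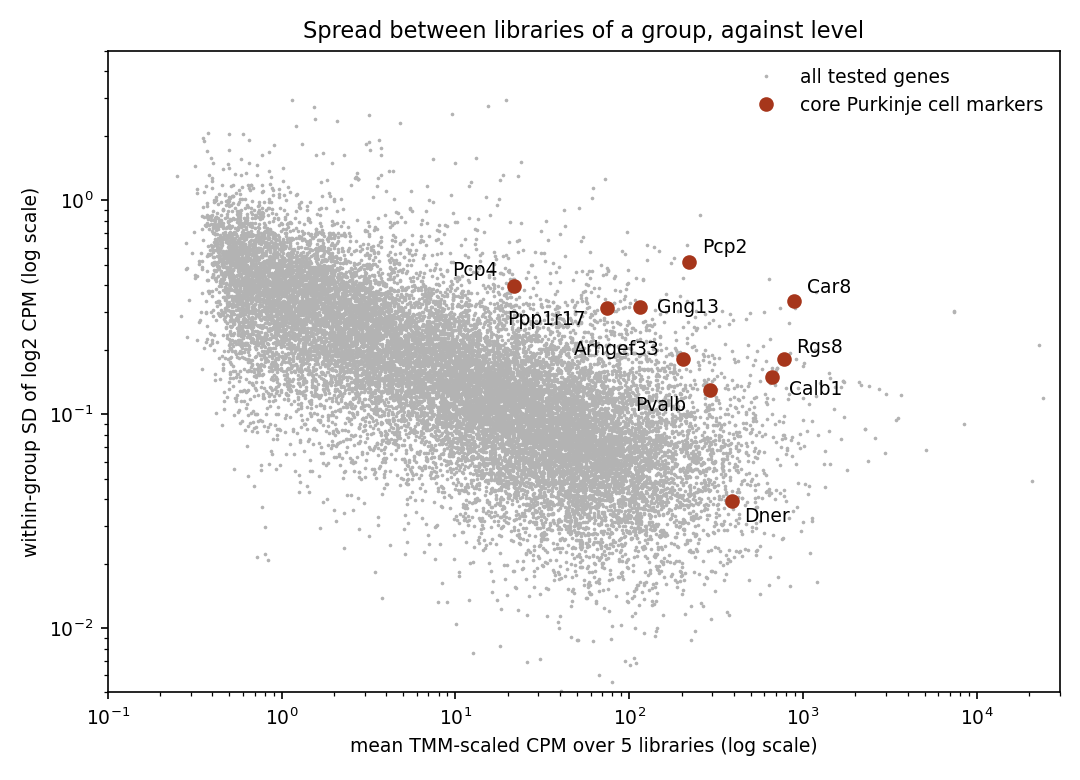
Within-group SD of log2 CPM (y axis, log scale) against mean TMM-scaled CPM over the 5 libraries (x axis, log scale), with every tested gene in grey and the 10 members in red. Pcp2 (0.52) and Car8 (0.34) lie above nearly all genes of like level, and Dner (0.039) lies within the grey cloud.

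The members did not vary together. Yy1 cKO 3 was the highest of its group in 4 members (Pcp2, Gng13, Calb1 and Arhgef33) and the lowest in the other 6 (Rgs8, Pvalb, Pcp4, Car8, Ppp1r17 and Dner). It was thus at an end of its group in 10 of 10 members, where 79.8% of genes with a mean of at least 10 CPM also had it at an end. On the log2 scale Yy1 cKO 3 was above the mean of Yy1 cKO 1 and 2 by 0.94 for Pcp2 and 0.58 for Gng13. For Pcp4 the same difference was -0.83, for Car8 -0.69, for Ppp1r17 -0.56 and for Rgs8 -0.36. In 6 of 10 members it exceeded 0.3 in size, against 12.8% of genes with a mean of at least 10 CPM. Yy1 cKO 1 and 2 differed from each other by 0.15 or less in every member.

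The controls also differed, over a shorter range. Control 2 was above control 1 by 0.64 for Pcp2, 0.39 for Gng13, 0.39 for Arhgef33 and 0.26 for Calb1, the 4 members that were highest in Yy1 cKO 3 within its group, and by 0.20 for Car8. The same difference was -0.41 for Ppp1r17, -0.23 for Pvalb and -0.04 for Dner. Rgs8 and Pcp4, which varied in Yy1 cKO, differed by under 0.01 between the controls.

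**Figure D4:**
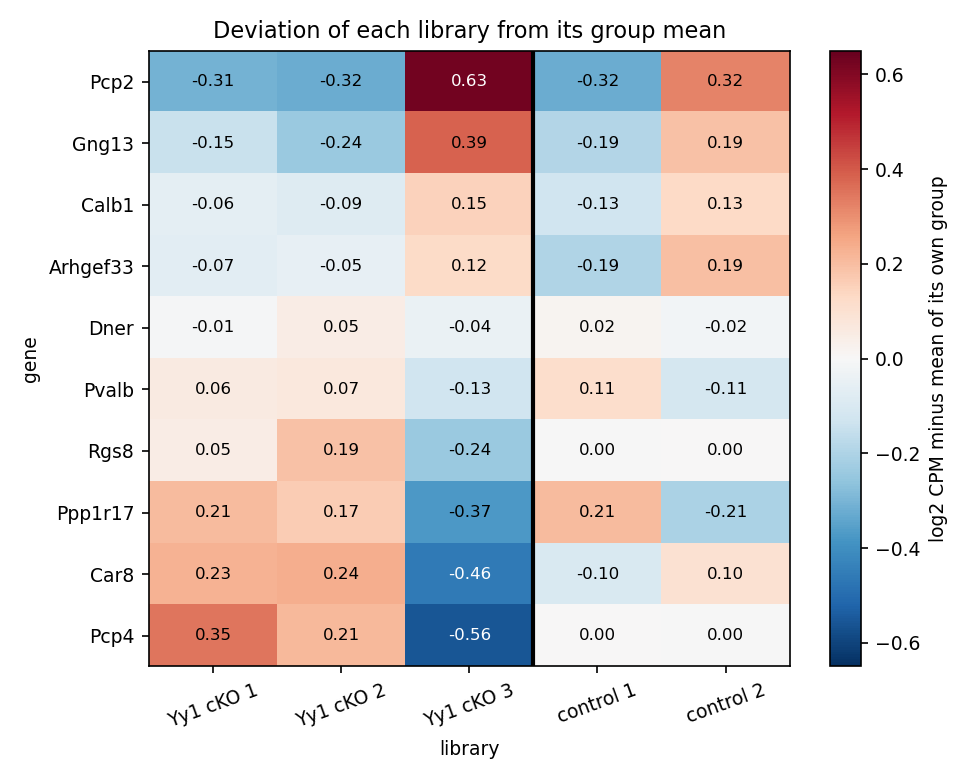
Log2 CPM of each library minus the mean of its own group (colour and printed number) for the 10 genes (rows, ordered by Yy1 cKO 3) in the 5 libraries (columns). Yy1 cKO 3 runs from 0.63 for Pcp2 to -0.56 for Pcp4, and the 4 genes at the top are low in control 1 and high in control 2.

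Ratios between members within a library do not depend on the scaling of libraries, and they varied likewise. The log2 ratio of Pcp2 to Calb1 was -1.81, -1.81 and -1.09 in Yy1 cKO and -1.95 and -1.56 in control. The log2 ratio of Car8 to Calb1 was 0.72, 0.75 and -0.18 in Yy1 cKO and 0.37 and 0.32 in control. In Yy1 cKO 3 the balance of Pcp2 and Car8 relative to Calb1 thus lay outside the range of the other libraries. The summed level of the 10 members varied less, at 3873, 3967 and 3575 CPM in Yy1 cKO and 3241 and 3582 CPM in control, or 0.352% to 0.384% and 0.335% to 0.369% of all counts.

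Summed levels of 6 other gene lists were highest or lowest of the group in Yy1 cKO 3. Microglia markers summed to 118 CPM there, against 85.3 and 82.9 CPM in Yy1 cKO 1 and 2, and astrocyte and Bergmann glia markers to 4204 CPM, against 3521 and 3626 CPM. Interneuron and Golgi cell markers summed to 1293 CPM in Yy1 cKO 3 and to 1143 and 1140 CPM in the other 2. Lower in Yy1 cKO 3 were the mGluR1 and calcium genes, at 10858 CPM against 12355 and 12651 CPM in Yy1 cKO 1 and 2. Mature granule neuron markers summed to 6620 CPM there, against 7040 and 7082 CPM, and nuclear and unipolar brush cell markers to 305 CPM, against 378 and 334 CPM. Most single genes of that last list went the other way. Yy1 cKO 3 was the highest of its group in 5 of the 7 tested and the lowest in 2. No gene of these 6 lists was at 0 in any library. Not every list set Yy1 cKO 3 apart. Erythroid genes summed to 596, 962 and 954 CPM in Yy1 cKO 1, 2 and 3, and oligodendrocyte lineage markers to 7141, 6575 and 7272 CPM. Trends of exon length and GC content were small at the members, at most 0.082 on the log2 scale in any library, and removing them left the median spread at 0.25. The part of these gene groups in the spread was not tested.

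Leaving out Yy1 cKO 3 lowered the median spread of the members to 0.12 and raised the number called to 4, with Rgs8 and Car8 added to Pvalb and Dner. Calls also rose over all 20388 tested genes, from 4762 to 6067, and those called higher from 2185 to 2968. Leaving out each library in turn moved the log2 fold change of Pcp2 between -0.18 and 0.56 and that of Ppp1r17 between 0.22 and 0.63. For Dner it stayed between 0.22 and 0.26.

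**Figure D5:**
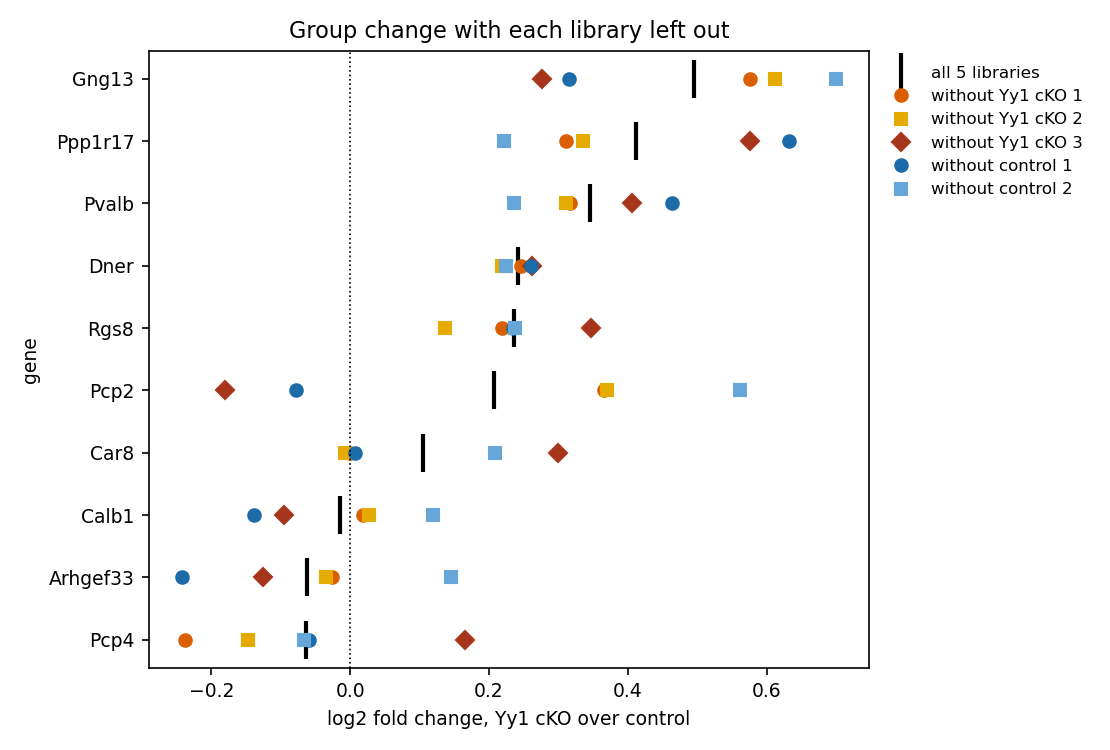
Log2 fold change of Yy1 cKO over control (x axis) of the 10 genes with all 5 libraries (black tick) and with each library left out (coloured points). Points for Pcp2 fall on both sides of 0 (-0.18 to 0.56), while all points for Pvalb, Dner, Gng13, Ppp1r17 and Rgs8 lie above 0.

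Because the libraries differ in Y-linked transcripts, the contrast was also taken within each kind. Yy1 cKO 3 minus control 1, the pair with Ddx3y, has no replicate. Against it stands Yy1 cKO 1 and 2 minus control 2. The 2 differences had the same sign in 3 members: Gng13 (1.06 and 0.09), Pvalb (0.11 and 0.52) and Dner (0.18 and 0.28). They had opposite signs in the other 7, among them Pcp2 (1.12 and -0.46), Calb1 (0.27 and -0.22) and Ppp1r17 (-0.18 and 0.80). Among Yy1 cKO 1 and 2 and control 2 alone, 5 members were called higher (Rgs8, Pvalb, Car8, Ppp1r17 and Dner) and 3 lower (Pcp2, Calb1 and Arhgef33), beside 28.7% of all genes called. That fit was chosen after seeing the data and rests on 1 control, whose variation is assumed to be that of the pair of Yy1 cKO libraries. With a term for Y-linked transcripts over all 5 libraries, Pvalb (edgeR adjusted p = 0.037) and Dner (0.020) were called and no other member was.

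Levels were compared between members per exon length, in TPM, a unit of transcripts that is scaled by length and depth. Pvalb had the highest mean, at 725 ± 41.1 TPM in Yy1 cKO and 603 ± 83.9 TPM in control (SD, n = 3 and 2), followed by Car8 at 561 ± 132 and 552 ± 38.7 TPM. The ranges of Pvalb and Car8 did not overlap in Yy1 cKO but did in control, and those of Car8 and Gng13 overlapped in Yy1 cKO. Gng13 (405 ± 110 and 301 ± 48.2 TPM), Calb1 (326 ± 38.3 and 346 ± 33.9 TPM) and Pcp2 (306 ± 132 and 276 ± 78.0 TPM) came next, and their ranges overlapped within each group. Dner (206 ± 0.76 and 184 ± 8.4 TPM) and Rgs8 (203 ± 24.9 and 182 ± 5.0 TPM) could not be ordered either. Ppp1r17 (112 ± 21.7 and 89.1 ± 20.3 TPM) and Arhgef33 (101 ± 9.96 and 111 ± 17.9 TPM) lay below, and Pcp4 was lowest, at 49.3 ± 14.5 and 54.6 ± 1.7 TPM. The order depends on the length used. Per kb of the annotated transcript with the longest coding part, which has 504 bases in Pcp2, Pcp2 came first, at 464 CPM per kb in Yy1 cKO and 402 in control, ahead of Pvalb at 326 and 256.

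Among 10721 other genes with a mean of at least 10 CPM, those whose centred log2 profile over the 5 libraries was most like the members' mean were Fundc2 (root mean square difference 0.010), Fam131a (0.012), Larp4 (0.014), Edrf1 (0.017) and Hax1 (0.017). That mean profile was shallow, from 0.10 in Yy1 cKO 1 to -0.17 in control 1. For Pcp2 alone the nearest were Phactr2 (0.058), Pdgfd (0.14) and Fam20a (0.14), and for Calb1 Gcdh, Ddx28 and Pibf1 (0.031 each). Among the members, Calb1 and Arhgef33 had the most similar profiles (0.049), and Pcp2 and Pcp4 the least (0.69).

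Of 24 genes of mGluR1 and calcium signalling 8 rose and 2 fell (41.7% called, against 23.4% of all genes), with a median log2 fold change of 0.21. Besides Itpr1, the calcium pump of the stores Atp2a3 rose by 0.77 ± 0.063 (SE) and the phospholipase Plcb4 by 0.49 ± 0.069, while the T-type channel Cacna1g fell by 0.43 ± 0.061. The number that rose was 5 without Yy1 cKO 1 or Yy1 cKO 2 and 13 without Yy1 cKO 3. Over all tested genes the number called higher moved likewise, from 2185 to 1497, 1621 and 2968 in these fits. Of the 24 genes 5 rose with scaling by library totals or with length and GC trends removed. All genes called higher then numbered 1432 and 1931. The median spread of the 24 was 0.14. Yy1 cKO 3 was the lowest of its group in 18 of them (75%), against 43.0% of genes with a mean of at least 10 CPM.

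Of 24 other Purkinje-enriched genes 6 rose and 3 fell (37.5% called), with a median log2 fold change of 0.14. The potassium channel subunit Kcng4 rose by 0.95 ± 0.070 (SE) and Gad1, which makes GABA, by 0.60 ± 0.061, while Mtss1, a regulator of dendritic actin, fell by 0.76 ± 0.086 and the transcription factor Ebf1 by 0.68 ± 0.082. Some of these genes varied between libraries even more than Pcp2. The spread was 1.25 for Doc2b and 0.76 for Scn4b, and Yy1 cKO 3 deviated from its group mean by -1.64 for Doc2b and -0.97 for Scn4b on the log2 scale. They were picked after their values were seen.

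Relatives and partners of the members moved both ways, with 10 higher and 8 lower of 36 tested (50% called, against 23.4% of all tested genes) and a median log2 fold change of 0.04. Rgs14 and Ocm were too low to test. Among relatives, Calb2, the calretinin of granule cells and unipolar brush cells, did not pass (log2 fold change 0.18 ± 0.125, SE), and the carbonic anhydrase Car4, which is also in the list of mature granule neuron markers, rose by 0.96 ± 0.092 and the related protein Car10 by 0.22 ± 0.060. Gnao1, the Go alpha subunit that Pcp2 and Rgs8 act on, did not pass (0.09 ± 0.078), while the gamma subunit Gng2 fell by 0.98 ± 0.067. The alpha subunit Gnai1 rose by 0.43 ± 0.056 and the calcium-binding protein S100b, best known from glia, by 0.70 ± 0.056.

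Levels in CPM are relative to the RNA of the whole tissue, in which markers of granule cells differed between the groups. Of 12 markers of granule cell progenitors and immature neurons 11 fell and 0 rose, where 12.6% of all tested genes fell and 10.7% rose. Their median log2 fold change was -4.05. The sum of the 12 was 683 to 736 CPM in Yy1 cKO and 1414 to 1486 CPM in control. Much of that sum was Neurod1, the marker not called, at a mean of 521 CPM in Yy1 cKO and 559 CPM in control. Of 12 markers of mature granule neurons 8 rose and 2 fell, with sums of 6620 to 7082 CPM and 5420 to 5447 CPM. No mature granule neuron marker was at 0, and of the progenitor and immature neuron markers up to 2 were at 0 in a Yy1 cKO library. The part of these shifts in the values of Pvalb and Dner was not tested.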

How the data were processed

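Gene expression was measured by bulk RNA-seq of whole cerebella in 5 libraries. Per the labels' protocols, TRIzol extraction was followed by ribosomal RNA depletion and strand-specific library preparation, and the design text gives paired reads of 150 bp. The build GRCm38 and, as tools, STAR 2.7.1a with featureCounts, Trimmomatic 0.39, DESeq2 1.26.0 and FastQC 0.11.8 are named per the submitters' processing notes. Tool settings, strand included, are not given there. The authors deposited raw read counts, used here for the tests, and a normalized signal. In every library this deposited signal equals the raw count divided by 1 constant, 0.969 to 1.07, for 24859 genes.

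Symbols and exon lengths came from GENCODE M21: 54673 of 55421 identifiers matched with version, 567 without, and 181 had no match. Groups came from sample titles. The edgeR 4.0.16 quasi-likelihood test (R 4.3.3) was fitted to all genes passing filterByExpr, with TMM scaling, genotype as the sole term, robust dispersion, and p-values adjusted by Benjamini-Hochberg (threshold 0.05). Log2 CPM used a prior count of 2. SEs came from the quasi-likelihood F statistic. The fit was tested on simulated data. Members and gene lists were chosen with earlier results of these data known. All 10 members are named. Of the signalling, Purkinje-enriched, relatives and interneuron lists the text names the 4 called genes with the smallest p, and from any list partners or paralogs of a member. The genes of the interneuron list that did not pass are named too. Likeness was the root mean square difference of log2 CPM centred over the 5 libraries. Alternatives were other scalings and filters, DESeq2 1.42.0, limma 3.58.1 (voom, and trend on log2 of the deposited signal plus 1), a replicate block, a term for Y-linked transcripts, removal of length and GC trends, and leaving out each library.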

Additional observations from a re-analysis of the deposited data

How the results depend on the processing

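Over 18 alternatives for each of 10 members, 160 of 180 log2 fold changes kept their side of the threshold, 8 lost the call, 11 gained it and 1 reversed. Pvalb was called in 15 and Dner in 13 of 18. The reversal was Pcp2 (-0.47) among Yy1 cKO 1 and 2 and control 2, the libraries without Y-linked transcripts, a fit added after seeing the data. That fit rests on 1 control. Its median log2 fold change was 0.18 for the members and -0.0093 over all tested genes. Scaling by library totals gave 1 member called higher, a member median of 0.14, 5 mGluR1 and calcium genes higher and 1432 of all genes higher, against 2185 in the main test, with 3369 lower against 2577; it moved the median of all genes to -0.08. Removing length and GC trends gave 5 mGluR1 and calcium genes higher, and no filter beyond 1 count gave 3 members higher, with Rgs8 added, and 5 other Purkinje-enriched genes lower. Over fits that leave out 1 library, 0 to 4 members were called higher and the member median was 0.12 to 0.27. The median spread, taken without each Yy1 cKO library alone, was 0.12 to 0.28. Likewise 4 to 13 mGluR1 and calcium genes were higher and 1 to 2 lower, and 2163 to 6067 of all genes were called, 870 to 2968 higher and 1266 to 3099 lower. The causes were not tested.

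The replicate numbers are shared by the groups, but nothing says that they pair the samples: deviations from the group means correlated at -0.29 over 10731 genes for replicate 1 and at 0.36 for replicate 2. Replicate 3 exists only in Yy1 cKO, so in a fit with the replicate block Yy1 cKO 3 adds nothing to the contrast. The member median was 0.27 in that fit and 0.27 without Yy1 cKO 3. With the block 5 members were called higher, and 3486 of all genes. Of the mGluR1 and calcium genes 14 were called higher, and of the other Purkinje-enriched genes 10 higher and 5 lower. Fits that leave out a control assume that the lone control varies like the other libraries. With 2 controls, precision is limited by the number of libraries rather than by counts.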
